A study of Mus musculus with 11 samples.

Results

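Most probes on an expression array carry a gene's name, but 16194 of the probes used here carry only a stretch of the mouse genome (build mm9) and a strand, such as chr16:90008636-90015586 R. Such interval probes query RNA copied from stretches named by position alone, and fall into 3543 distinct intervals. The interval probes described here were chosen by measured signal: each was well above background on every array of at least 1 of the 3 time groups. This held for 6364 of the 16194 interval probes (39.3%), from 2484 intervals, out of 55681 non-control probes in all. Of these 2484 intervals, 1318 overlap another of them, so counts of intervals are not counts of separate stretches. Of probes of any other kind, 59.5% met the same condition.

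RNA came from L-GMP cells, C57BL/6 mouse granulocyte-macrophage progenitors that the fusion oncogene MLL-AF9 had transformed. Leukemic mice gave the 4 cell lines, which grew with 20% fetal bovine serum and 10 ng/ml IL-3. Every line, in every group, carried the genotype Jmjd2a/b/cf/f;Rosa26::CreERT2. These are floxed alleles of 3 histone demethylase genes (Kdm4a, Kdm4b and Kdm4c) with a Cre recombinase that 4-hydroxytamoxifen switches on in all cells that express Rosa26. The groups were cells before 500 nM 4-hydroxytamoxifen (0 h, 4 arrays) and cells 48 h (4 arrays) and 96 h (3 arrays) after it was added. Cells of these lines left without the compound for 48 or 96 h were not analysed here, so deletion, the compound, Cre activity and time in culture cannot be told apart. All 0 h and 48 h arrays lay on 1 slide and all 96 h arrays on another, so for 96 h the slide and the time cannot be told apart either.

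Mammalian genomes are transcribed well beyond protein-coding genes. Long noncoding RNAs are transcripts with no long reading frame, are often spliced and polyadenylated like messenger RNAs, and tend to be less abundant and more cell-type specific. Some act on chromatin or in nuclear bodies and others host small RNAs in their introns. Kdm4 enzymes remove methyl groups from lysine residues of histone H3, marks of silent chromatin and of transcribed gene bodies. An interval probe does not tell whether a signal comes from a stable noncoding RNA, an unspliced precursor or an extended messenger RNA.

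The Kdm4b probe fell by 3.30 at 48 h and by 3.24 at 96 h on the log2 scale (limma adjusted p = 7.28e-07 and 1.86e-06), while the Kdm4c probe fell by 4.95 at 48 h and fell by 4.60 at 96 h (adjusted p = 8.37e-07 and 3.78e-06). With a normexp background correction the 48 h falls were smaller: Kdm4b fell by 2.30 and Kdm4c fell by 2.58. The Kdm4c probe was detected on 2 of 4 arrays at 48 h. Of 2 Kdm4a probes, the brighter fell by 1.59 and 1.20 (adjusted p = 0.00101 and 0.00443). The dimmer (A_55_P1982585) differed by -0.23 at 48 h, which did not pass (adjusted p = 0.593), and by -1.46 at 96 h, when 2 of 3 arrays detected it. Probes of 11 of 11 progenitor markers passed the detection condition, among them Mpo, Elane and Ctsg, enzymes of granules. The condition was also met by 5 of 5 T cell, 1 of 4 B cell, 3 of 4 erythroid, 3 of 3 megakaryocyte, 2 of 3 mast cell and basophil and 3 of 5 stromal marker genes. Ms4a1 and Cdh5 were among the markers above background on no array. What these markers contribute to the values below was not tested.

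Signal is given as log2 of the processed signal less the array's 75th percentile, called the scaled log2 signal. The interval probes were dim: their median over arrays was -2.34, against 0.60 for the 17808 named-gene probes that met the same condition. The intervals ran from 62 to 533972 bases, with a median of 9994. Forward-strand probes numbered 3197 and reverse-strand probes 3164, and 3 had no strand in their name. The X chromosome held 216 and the autosomes 6148. The share of interval probes that met the condition ranged from 30.8% on chromosome 9 to 47.6% on chromosome 5.

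Detection chose the probes, so it also chose part of what they show. Of the 6364 probes, 4749 (74.6%) were well above background on all 11 arrays. Another 789 qualified at 96 h alone, against 124 at 0 h alone and 44 at 48 h alone. The share of all interval probes detected was 42.3%, 44.5%, 35.6% and 42.2% on the 0 h arrays, and 46.6%, 42.0%, 35.8% and 34.2% on the 48 h arrays. On the 96 h arrays it was 69.5%, 39.3% and 54.0%. Replicate 1 of 96 h therefore stood above every other array. The condition favoured probes that were higher at 96 h: of the 789 that qualified there alone, 767 were higher than at 0 h and 713 than at 48 h. For interval probes described singly, an adjusted p is quoted only where the probe was detected on all 11 arrays, and the others are described by their values. Counts of called probes that take in the others are descriptions, since such a probe qualified through the group where it was high. At the edge of the condition, 36 probes qualified on exactly 3 arrays, and 73 probes detected on 8 arrays did not qualify. Just inside, a reverse-strand probe of chr12:45415565-45423519 (A_30_P01018625) had means of -6.38, -5.29 and -3.33 at 0, 48 and 96 h. Just outside, a forward-strand probe of chr1:137482591-137625604 (A_30_P01017584) had -3.10, -3.11 and -3.78.

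At 48 h the interval probes lay higher, relative to named-gene probes of like brightness, than at 0 h. Each interval probe was set against the median of named-gene probes in the same 1-unit step of mean scaled log2 signal. On the 0 h arrays, the median interval probe stood at -0.03, -0.08, -0.11 and -0.08 from its named-gene neighbours in brightness. On the 48 h arrays it stood at 0.13, 0.03, 0.04 and 0.18, and on the 96 h arrays at -0.03, 0.005 and -0.04. Every 48 h array thus lay above every 0 h and every 96 h array, with groups of -0.07 ± 0.03 (SD, n = 4), 0.10 ± 0.07 (n = 4) and -0.02 ± 0.02 (n = 3). In terms of differences, the median interval probe moved 0.15 more than named-gene probes of like brightness between 0 and 48 h. It moved 0.04 more between 0 and 96 h and -0.11 between 48 and 96 h. With only probes detected on all arrays, an alternative chosen after seeing the data, these were 0.17, 0.04 and -0.13. No p-value is attached to these medians, because the probes were chosen as a list. The size depended on background handling: at 48 h it was 0.05 with a normexp correction and quantile normalization, and 0.05 in the authors' deposited table of log2 values.

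**Figure D1:**
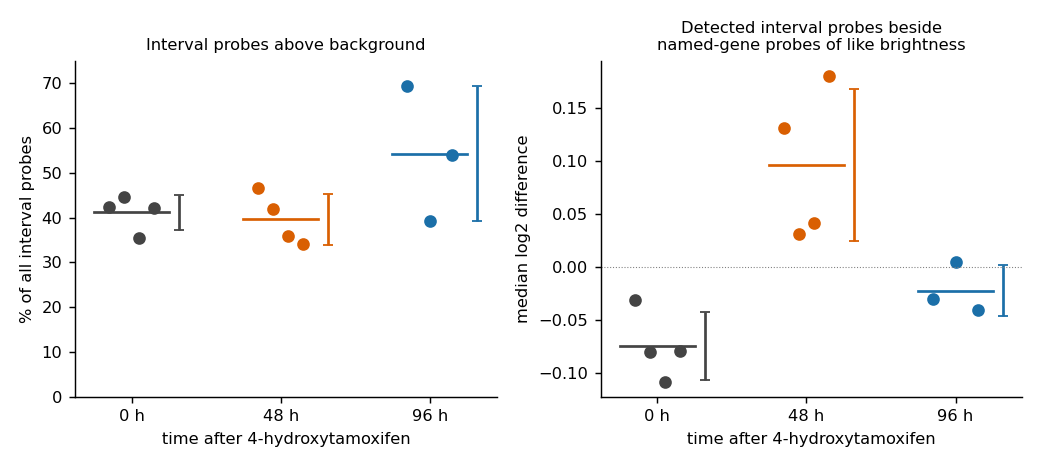
Left, the share of all interval probes well above background on each array (percent); right, the median log2 difference of qualifying interval probes from named-gene probes of like brightness on each array. Points are arrays, horizontal lines are group means and bars are 1 SD (n = 4, 4 and 3 arrays). The 48 h arrays lie between 0.03 and 0.18 on the right, above all others, while 96 h replicate 1 has the highest detected share, 69.5%.

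The counts of single probes that passed the test leaned the same way at 48 h. Of the 4749 probes detected on all arrays, 606 were called higher and 120 lower at 48 h against 0 h, that is 12.8% and 2.53%. Among all 25546 probes detected on all arrays, 10.7% were called higher and 8.66% lower. Named-gene probes under the same restriction leaned the other way, with 1337 of 16084 higher and 1914 lower. From 0 to 96 h, 260 interval probes were called higher and 91 lower (5.47% and 1.92%), beside 5.45% and 3.53% of all probes. Between 48 and 96 h, 123 were called higher and 425 lower (2.59% and 8.95%), beside 5.08% and 6.42%. The share called higher at 96 h against 0 h was thus close to that of all probes.

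As a description of all 6364 qualifying probes, 710 were called higher and 165 lower at 48 h, beside 9.32% and 7.05% of all 34274 probes tested (16.4% in either direction). Between 0 and 96 h the counts were 437 and 100, beside 5.53% and 2.77% (8.31% in either direction). From 48 to 96 h they were 227 and 444, beside 4.67% and 5.1% (9.77% in either direction). Called probes whose groups did not overlap numbered 788, 531 and 665, beside 15.1%, 8.22% and 9.68% of all probes.

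The split into higher and lower rested on how arrays were scaled. With the 75th percentile, the median of all tested probes moved by 0.13 at 48 h and 0.12 at 96 h against 0 h. With arrays set to a common median, it moved by -0.10 and -0.26 instead. The split at 48 h was then 109 higher and 185 lower, against 710 and 165. It was 390 and 220 with quantile normalization, 533 and 214 with normexp and quantile normalization, and 516 and 215 in the deposited table. Between 0 and 96 h the median scaling gave 82 higher and 298 lower, quantile normalization 134 and 165, normexp 160 and 168, and the deposited log2 values 169 and 162. From 48 to 96 h the median scaling gave 59 and 267, and lower calls stayed in the majority under all 4 of these settings. The median interval probe lay 0.13 above the median of all probes at 48 h and 0.09 above it at 96 h, a distance that median scaling cannot move. It was 0.10 at 48 h and 0.03 at 96 h with quantile normalization, 0.03 and 0.01 with normexp, and 0.03 and 0.01 in the deposited table.

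Single arrays also set how many probes passed, among all probes tested as well as among interval probes. At 48 h against 0 h, 875 probes were called in all. The count was 481, 450 or 557 without 0 h replicate 1, 3 or 4, and 456 or 396 without 48 h replicate 1 or 4. Of all probes tested, 9.72%, 9.01%, 9.53%, 9.09% and 8.03% were then called, in that order, against 16.4% with all arrays. Without 0 h replicate 2 the count rose to 929, beside 19.2% of all probes. Between 0 and 96 h, 537 were called. Without 0 h replicate 1, 3 or 4 the count was 283, 185 or 205, and without 96 h replicate 1, 2 or 3 it was 130, 143 or 218. The share of all probes was then 4.23%, 3.16%, 3.13%, 2.69%, 2.24% and 2.98%, against 8.31%. From 48 to 96 h, 671 were called. Without 48 h replicate 1 or 4 the count was 354 or 362, and without 96 h replicate 1, 2 or 3 it was 211, 421 or 335. The share of all probes was then 4.93%, 4.59%, 2.90%, 6.20% and 4.45%, against 9.77%.

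Brightness separated interval probes from named genes at 48 h. Interval probes had a median log2 difference of 0.16 to 0.29 in every step of brightness, such as 0.26 between scaled signals of -3 and -2 and 0.23 between 1 and 2. The median of named-gene probes was 0.16 between -3 and -2 and -0.12 between 1 and 2. Between 1 and 2, 17.3% of interval probes were called higher and 5.78% lower, beside 6.45% and 17.8% of named-gene probes. Between 0 and 96 h, among probes detected on all arrays, probes with a signal between -4 and -3 had a median of 0.28 for interval probes and 0.25 for named-gene probes. In every step above 1 the order was reversed: interval probes had -0.03 between 1 and 2 and -0.16 between 3 and 4, beside 0.004 and -0.02 for named-gene probes. Below -4, fewer than 20 probes of either kind were detected on all arrays, so their medians at 96 h are set in part by the detection condition.

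**Figure D2:**
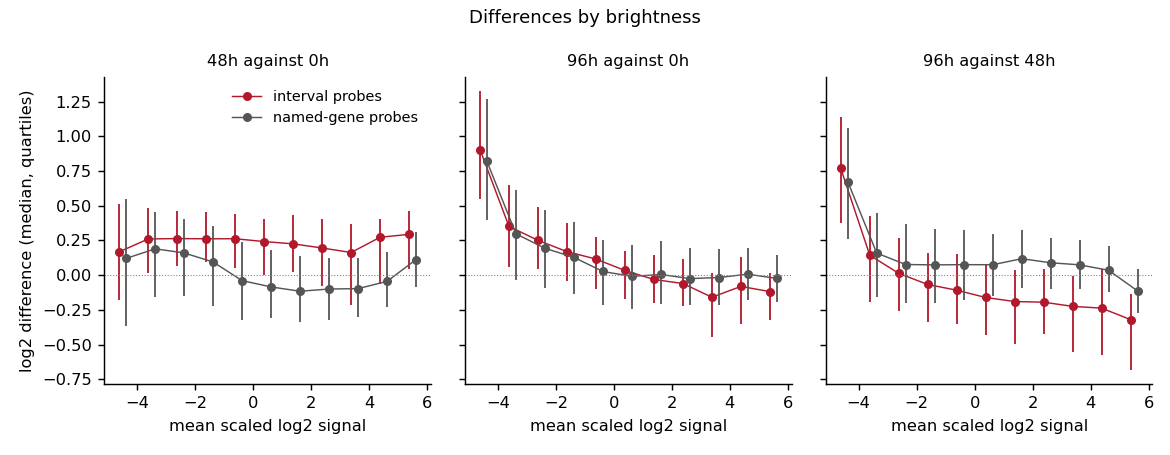
Median log2 difference of qualifying interval probes and named-gene probes (points) with the quartiles (bars), by mean scaled log2 signal in steps of 1, for each pair of times. At 48 h against 0 h the interval probes stay between 0.16 and 0.29 while the median of named-gene probes lies below 0 from a signal of -1 to 5; at 96 h against 0 h the dimmest probes qualified mostly through some groups alone.

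The pattern ran across the genome. Among probes detected on all arrays, the 38 combinations of autosome and strand all had a median above 0 at 48 h. They ran from 0.19 on the forward strand of chromosome 8 to 0.33 on that of chromosome 19. Such signs depend on how arrays were scaled. With arrays set to a common median, the median of all qualifying interval probes was 0.03 at 48 h, against 0.25. Between 0 and 96 h it was -0.17, against 0.21. Medians by autosome were not worked out with that scaling. Relative to named-gene probes of like brightness, 19 of 19 autosomes were above 0 at 48 h, between 0.11 and 0.21. Between 0 and 96 h the 38 medians ran from 0.04 (chromosome 7, forward) to 0.27 (chromosome 1, forward), and 16 of 19 autosomes were above 0 relative to named genes. From 48 to 96 h they ran from -0.14 (chromosome 5, forward) to 0.09, with 4 of 38 above 0, and 0 of 19 autosomes were above 0 relative to named genes. Neighbouring autosomes in these orders overlapped widely, since the quartiles within 1 autosome spanned more than the range between them.

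**Figure D3:**
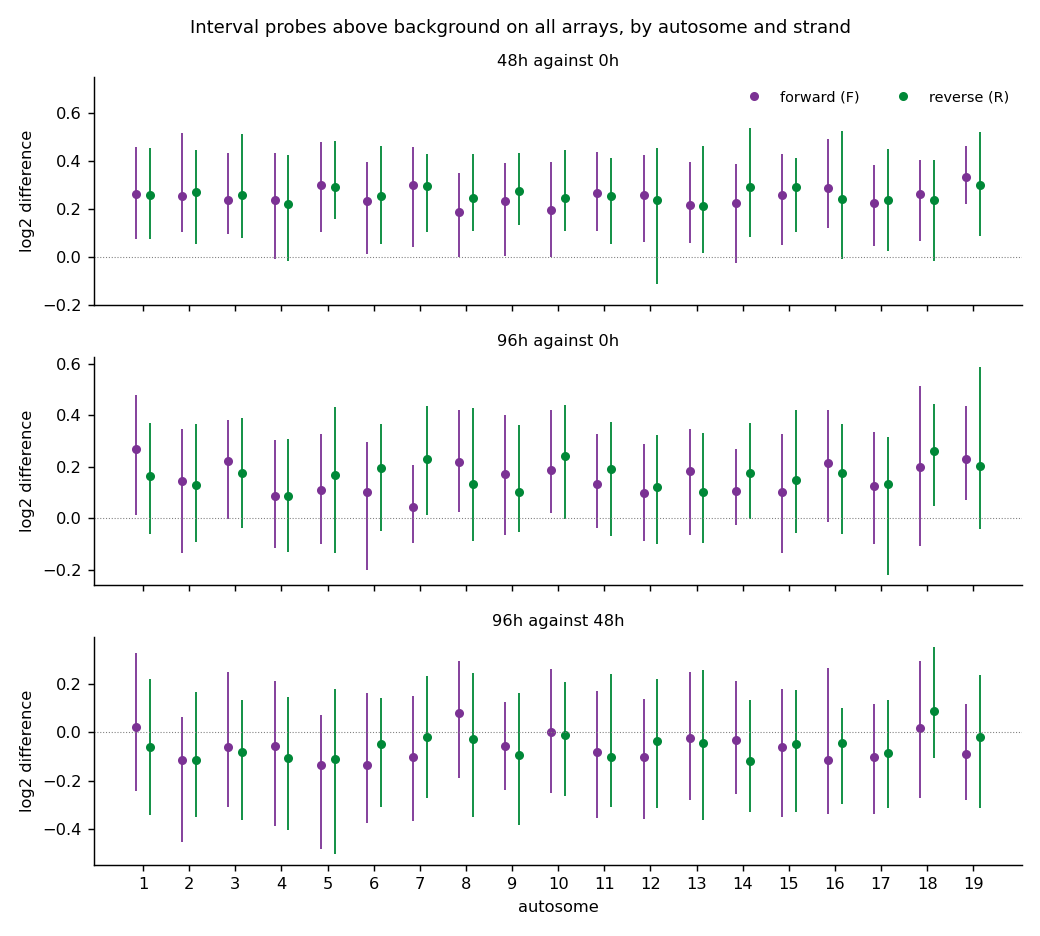
Median log2 difference (points) and quartiles (bars) of interval probes detected on all 11 arrays, by autosome and strand, for each pair of times. All 38 medians are above 0 at 48 h against 0 h, where the medians of both strands of an autosome lie within each other's quartiles. The position of 0 depends on how arrays were scaled.

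The strands differed little in their medians. At 48 h, forward probes moved 0.15 and reverse probes 0.16 more than named-gene probes of like brightness, and at 96 h against 0 h both moved 0.04 more. Among probes detected on all arrays, 11.7% of forward and 13.9% of reverse probes were called higher at 48 h. Lower calls made up 1.96% and 3.11%. Of all probes detected on all arrays, 10.7% were called higher and 8.66% lower. The difference between strands was not tested. The 216 X-linked probes moved 0.27 more at 48 h and 0.007 more at 96 h against 0 h, beside 0.15 and 0.04 for the autosomes. The difference between X and autosomes was not tested. Interval length made little difference at 48 h either: the median log2 difference was 0.27 for intervals up to 1 kb, 0.27 from 1 to 5 kb, 0.25 from 5 to 20 kb and 0.26 above 20 kb.

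Many intervals were probed on both strands. Of 1067 such intervals, 651 had a qualifying probe on each strand, 169 on the forward strand only, 164 on the reverse strand only and 83 on neither. In 479 intervals both strands had probes detected on all arrays. The 2 strands differed from 0 with the same sign in 379 intervals at 48 h (79.1%), 307 between 0 and 96 h and 274 between 48 and 96 h. Of all interval probes detected on all arrays, 80.1%, 67.9% and 43.0% were above 0 in these comparisons. A shared sign would therefore be frequent at 48 h even without a link between strands. The share expected without one was not worked out, so a link between the signs was not tested. Across intervals the sizes of the differences were nearly unrelated between strands, with Pearson's r of 0.05, 0.08 and 0.03 over 479 intervals that share their 11 arrays. At 48 h, 27 intervals were called higher on both strands, 1 lower on both and 5 in opposite directions, while 69 were called on the forward strand only and 91 on the reverse strand only. Of all single probes detected on all arrays, 10.7% were called higher and 8.66% lower. These are not the shares expected for calls on both strands.

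**Figure D4:**
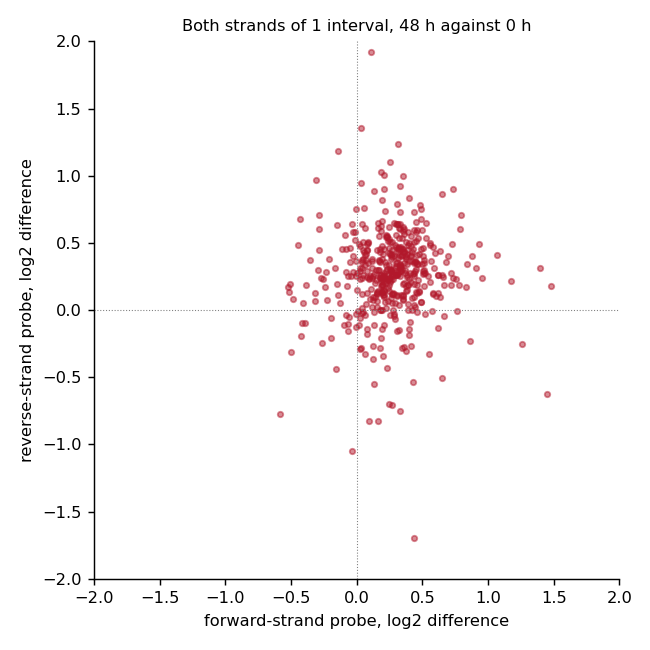
Log2 difference at 48 h against 0 h of the reverse-strand probes (vertical) against the forward-strand probes (horizontal) of the 479 intervals with probes detected on all arrays on both strands, 1 point per interval. Most points lie above 0 on both axes, and the cloud has no slope (r = 0.05).

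Many strands of intervals carried several probes. Of 1158 strands of intervals with at least 2 probes detected on all arrays (3308 probes), 862 (74.4%) had probes of 1 sign at 48 h. Of single interval probes 80.1% were above 0, so strands of 1 sign would be frequent even if their probes were unrelated. The share expected of unrelated probes was not worked out. The SD among probes of a strand had a median of 0.16, beside an SD of 0.38 over interval probes as a whole. The second value is a single SD and not a median over strands. At least 2 probes were called in the same direction on 117 strands less 9 with opposite calls: 83 higher and 25 lower. Singly, 10.7% of all probes detected on all arrays were called higher and 8.66% lower. These are not the shares expected for 2 calls on 1 strand. Between 0 and 96 h the corresponding counts were 31 higher, 11 lower and 2 opposite, and at 96 h against 48 h they were 19, 49 and 4.

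Several intervals on chromosomes 1, 2 and 5 had probes with lower signals at 48 h. Forward probe A_30_P01021827 of chr1:84961943-84962737 read -0.25, -0.78, -0.61 and -0.24 at 0 h. At 48 h it read -5.10, -4.31, -4.95 and -4.90, above background on no array, and at 96 h -2.68, -3.69 and -3.91. All later arrays were lower than the lowest 0 h array. The signal at 48 h was at least 15.1-fold lower than at 0 h, taking each 48 h array at the higher of its dimmest detected probe and its own value. Under the alternatives the log2 difference at 48 h ranged from -4.57 to -1.58.

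Intervals chr5:100849748-100858532 and chr5:100845342-100869667 overlap, and each had a reverse probe that fell. In the shorter interval, probe A_30_P01033004 read 0.04, -1.28, 0.53 and 0.58 at 0 h, then -2.67, -3.26, -3.16 and -3.63 at 48 h and -2.31, -2.76 and -3.85 at 96 h. It fell by 3.15 (SE 0.45, limma adjusted p = 0.00353) and by 2.94 (SE 0.48, adjusted p = 0.0127). In the longer interval, probe A_30_P01030583 fell from 0.33 ± 0.99 (SD, n = 4) to -2.71 ± 0.25 and -2.31 ± 0.44, by 3.04 (SE 0.42, adjusted p = 0.00332) and 2.64 (SE 0.45, adjusted p = 0.0141). Both 96 h calls were lost in a fit of those 2 groups alone. Of both, 0 h replicate 2 was the lowest 0 h array. Other reverse probes of the longer interval went the other way: A_30_P01023605 was higher by 1.27 (adjusted p = 0.00825) and A_30_P01033151 by 0.70 (adjusted p = 0.00493) at 48 h. Probes of the same strand of 1 interval were thus called in opposite directions.

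In chr1:85304494-85305390, an interval of 897 bases, 2 of the 3 reverse probes were detected on all arrays, and both were called lower at both times. Probe A_30_P01030738 read 1.29, 0.71, 0.91 and 1.66 at 0 h, -1.17, -1.43, -1.92 and -2.39 at 48 h and 0.03, -1.01 and -1.83 at 96 h. It fell by 2.87 at 48 h (SE 0.40, limma adjusted p = 0.00336) and by 2.08 at 96 h (SE 0.43, adjusted p = 0.024). The 96 h call was lost without 0 h replicate 1 or 4 or 96 h replicate 2 or 3, with adjusted p up to 0.0702. Another probe (A_30_P01024650), also detected on all arrays, fell by 3.67 at 48 h (adjusted p = 0.00207).

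In chr2:158169020-158191295, 3 of 7 reverse probes were called lower at 48 h and 1 higher. Probe A_30_P01021037 read 2.37, 1.64, 3.28 and 3.20 at 0 h, 1.04, 0.85, 1.11 and 1.16 at 48 h and 1.16, 1.26 and 0.86 at 96 h. All later arrays were lower than the lowest 0 h array. The fall was 1.58 at 48 h (SE 0.32, limma adjusted p = 0.0117) and 1.53 at 96 h (SE 0.34, adjusted p = 0.0298), and the second call was lost without 0 h replicate 3 or 4 or any 96 h replicate. Neighbouring reverse probes A_30_P01018875 and A_30_P01028387 fell by 1.57 and 1.86 at 48 h, while A_30_P01027119 was higher by 0.50 (adjusted p = 0.0147, 0.00893 and 0.0116).

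Lower signals were also seen on other chromosomes. In chr4:146017200-146029700, 4 forward probes were detected on every 0 h array, on 0 of 4 arrays at 48 h and on 1 or 2 of 3 at 96 h. Its brightest probe by mean (A_30_P01033656) went from -3.23 ± 0.24 to -5.0 ± 0.38 and -4.34 ± 0.50, at least 2.27-fold lower at 48 h. The smallest log2 difference of this probe at 48 h under the alternatives was -0.33. Reverse probe A_30_P01029532 of chr3:138239464-138241728 went from -0.01 ± 0.29 to -1.41 ± 0.11 and -1.15 ± 0.36 (adjusted p = 0.00263 and 0.014). Forward probe A_30_P01019332 of chr7:88668435-88674440 went from -1.89 ± 0.48 to -3.30 ± 0.38 and -3.15 ± 0.35 (adjusted p = 0.0101 and 0.0319). Its 96 h call was lost without 0 h replicate 1, 3 or 4 or any 96 h replicate. Forward probe A_30_P01020856 of chr10:96098058-96098623 was lower only at 96 h, at -3.77 ± 0.66 from -2.41 ± 0.56 (adjusted p = 0.0498), a call lost without any single array except 0 h replicate 2 and 96 h replicate 1.

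Forward probes of chr17:88466300-88495175 (A_30_P01030632) and chr17:36136010-36136696 (A_30_P01032982) were lower at 48 h but were not detected on every array. The first went from -3.68 ± 0.19 to -5.70 ± 0.70, at least 1.66-fold lower, while 2 reverse probes of its interval, detected on all arrays, were not called. Its smallest log2 difference under the alternatives was -0.27. The second went from -2.49 ± 0.48 to -3.94 ± 0.75. Its call was lost under 8 of 24 alternatives, among them leaving out 0 h replicate 1, 3 or 4 or 48 h replicate 1 or 4.

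Among the rises at 48 h, an interval on chromosome 16 had several probes. In chr16:90008636-90015586, 5 reverse probes had higher means at 48 h than at 0 h, by 1.92 to 2.88 (0.28 to 0.69 with normexp), but 1 of the 5 was detected on all arrays. Both forward probes were, and neither was called at 48 h (0.27 and -0.06). At 96 h forward probe A_30_P01030522 was higher by 0.67 (limma adjusted p = 0.0227), a call lost with median scaling, quantile normalization, normexp and in the deposited table. Among the reverse probes, A_30_P01025707 read -3.33, -3.41, -3.87 and -2.14 at 0 h, -1.64, -1.44, -1.28 and -0.70 at 48 h and -1.67, -1.28 and -2.03 at 96 h. It was higher by 1.92 at 48 h (SE 0.35, limma adjusted p = 0.00853). At 96 h it was higher by 1.53 (SE 0.38, adjusted p = 0.0389), but p was 0.0568 with the array files' number as a block. The call was also lost with median scaling, quantile normalization, normexp and the authors' values. Leaving out 0 h replicate 1, 2 or 3, 48 h replicate 2 or 3 or any 96 h replicate ended it too.

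A pair of short X-linked intervals, both on the reverse strand and close together, had higher signals at both times. In chrX:11671249-11671715, 2 of 3 probes were detected on all arrays, and both were called higher at both times. At 96 h, 0 of the 3 probes passed with quantile normalization, normexp or the deposited table, and 1 with median scaling. With normexp the 48 h differences of the 3 were 0.26 to 0.52. Probe A_30_P01032397 read -3.14, -3.49, -3.57 and -3.01 at 0 h, -1.63, -1.69, -1.56 and -1.59 at 48 h and -2.05, -0.51 and -2.63 at 96 h. It was higher by 1.68 at 48 h (SE 0.37, limma adjusted p = 0.0157; 0.0647 at most, with normexp correction or in the deposited table). At 96 h it was higher by 1.57 (SE 0.40, adjusted p = 0.04), a call lost with the array files' number as a block (0.0661) and without any single array except 96 h replicate 2 or 3. In chrX:11690182-11690581, where neither probe was detected on all arrays, probe A_30_P01018576 went from -3.87 ± 0.71 to -2.03 ± 0.34 and -1.85 ± 0.52.

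Of the 3 forward probes of chr10:66640530-66644032, 2 were detected on all arrays, and both were called higher at 48 h and neither at 96 h. Probe A_30_P01028471 read -3.76, -2.71, -3.73 and -2.49 at 0 h, -1.74, -0.94, -1.33 and -1.27 at 48 h and -2.34, -1.33 and -2.86 at 96 h. It was higher by 1.85 at 48 h (SE 0.38, limma adjusted p = 0.0131). At 96 h the difference of 1.0 did not pass (adjusted p = 0.15) and the arrays overlapped those of 0 h. Reverse probe A_30_P01027615 of chr3:35783763-35784442 behaved alike, with -3.15 ± 0.39, -1.55 ± 0.36 and -2.63 ± 0.90, and was higher by 1.60 at 48 h (SE 0.36, adjusted p = 0.017).

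Other rises at 48 h came from probes that were dim or not detected at 0 h. Reverse probe A_30_P01027994 of chr6:28172545-28176170 was above background on no 0 h array and on every later one. It went from -5.36 ± 0.31 to -3.23 ± 0.18 and -3.80 ± 0.68, at least 3.0-fold higher at 48 h and at least 2.03-fold higher at 96 h. Forward probe A_30_P01026388 of chr5:104936417-104984892 went from -4.74 ± 0.21 to -2.96 ± 0.14. The reverse probes of chr3:95457337-95458070 (A_30_P01027581) and chr10:21855725-21867925 (A_30_P01023900) went from -4.10 ± 0.58 to -2.31 ± 0.24 and from -5.04 ± 0.94 to -3.24 ± 0.16. Forward probe A_30_P01023358 of chr1:121054422-121055142 went from -4.72 ± 0.74 to -2.82 ± 0.71. The sizes depended on processing. In the order named, the smallest log2 differences at 48 h under the alternatives were 0.29, 0.31, 0.36, 0.18 and 0.30.

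**Figure D5:**
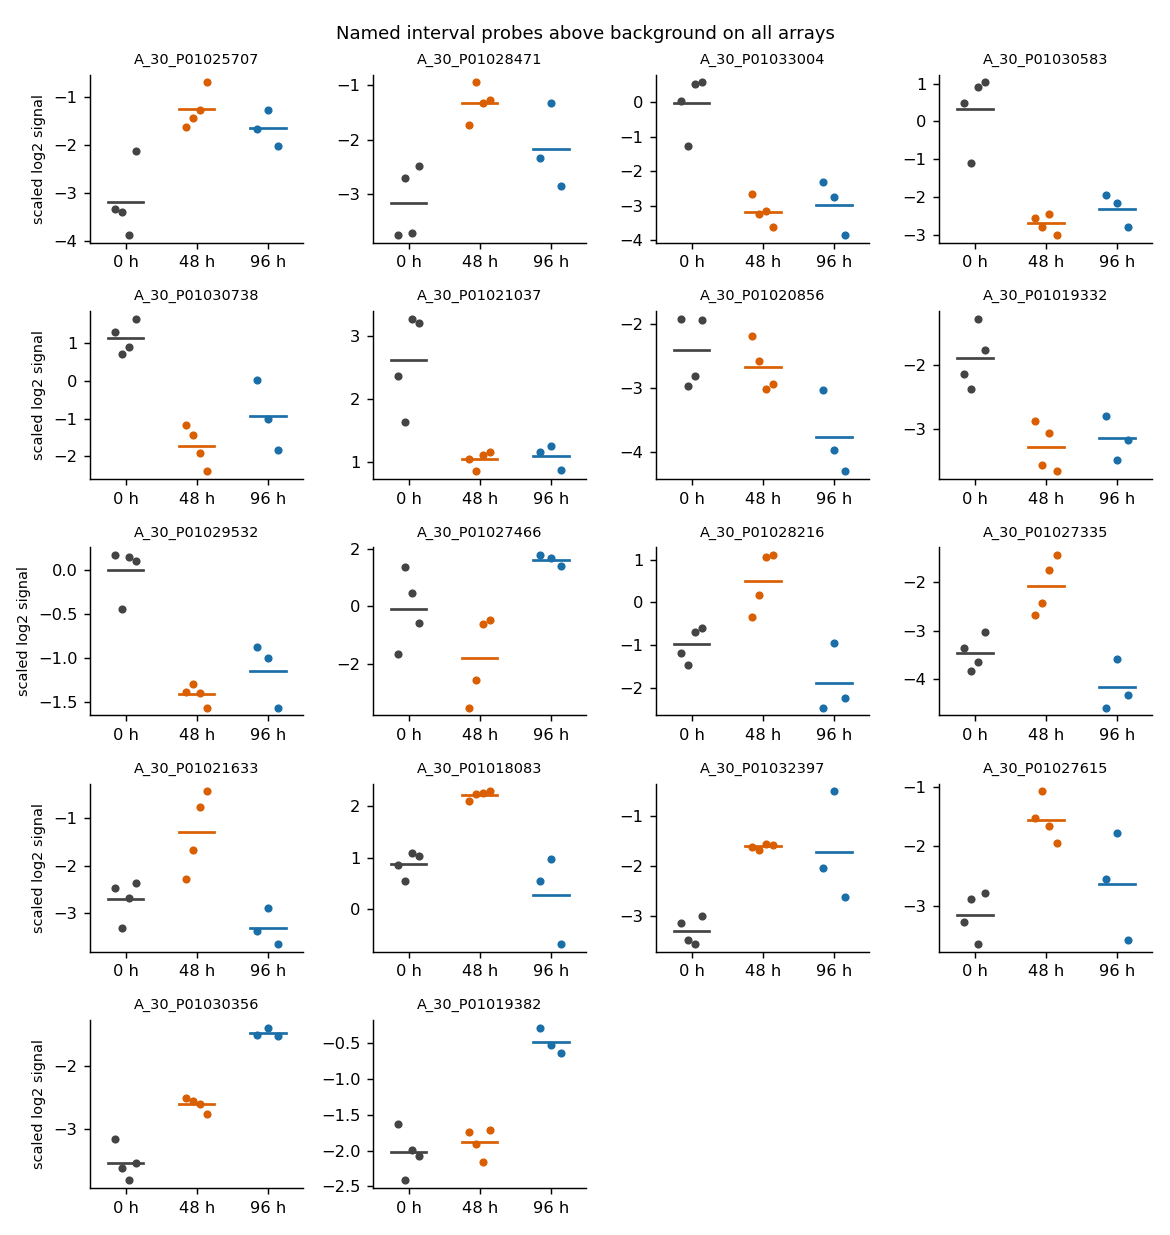
Scaled log2 signal of the named interval probes that were well above background on all 11 arrays, by time after 4-hydroxytamoxifen. Points are arrays (n = 4, 4 and 3) and lines are group means; each panel has its own vertical range, and levels of different probes are not comparable. A_30_P01030356 climbs from -3.55 to -2.61 and -1.47, while A_30_P01018083 peaks at 2.22 at 48 h.

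At 96 h the clearest rises detected on all arrays were on chromosomes 19 and 8. Forward probe A_30_P01030356 of chr19:46419916-46421753 read -3.17, -3.64, -3.82 and -3.56 at 0 h, -2.51, -2.56, -2.60 and -2.76 at 48 h and -1.51, -1.39 and -1.53 at 96 h. The 3 groups did not overlap. It was higher by 0.94 at 48 h (SE 0.14, limma adjusted p = 0.00393) and by 2.07 at 96 h (SE 0.15, adjusted p = 0.000507). Reverse probe A_30_P01019382 of chr8:129102060-129109035 read -1.63, -2.41, -1.98 and -2.07, then -1.74, -1.90, -2.15 and -1.72, then -0.28, -0.52 and -0.64. It was higher by 0.15 at 48 h (adjusted p = 0.58) and by 1.55 at 96 h (SE 0.19, adjusted p = 0.0047). Another reverse probe of this interval detected on all arrays, A_30_P01019695, was higher by 1.59 at 96 h (adjusted p = 0.0129). For A_30_P01030356 and A_30_P01019382, 96 h against 48 h also passed (adjusted p = 0.00464 and 0.00499).

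Larger differences at 96 h belonged to probes that qualified through 96 h itself. Reverse probe A_30_P01023385 of chr15:38639259-38639546 read -5.19, -6.16, -5.21 and -6.00 at 0 h, and -0.51, -3.03 and -4.29 at 96 h, at least 4.63-fold higher. Its 96 h arrays were far apart, and replicate 1 was the highest. Reverse probe A_30_P01031137 of chr6:12062275-12075800 read -3.14, -3.18 and -3.10 at 96 h, after -5.63 ± 0.44 at 0 h and -5.49 ± 0.54 at 48 h, at least 3.21-fold higher than at 0 h. Forward probe A_30_P01018218 of chr2:72818943-72826893, detected on 3 of 4 arrays at 0 h and on all later ones, went from -3.56 ± 0.58 to -2.89 ± 0.27 and -1.20 ± 0.16. In the order named, the smallest log2 differences at 96 h against 0 h under the alternatives were 0.65, 0.28 and 0.78.

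Probes of 5 further intervals were not detected on every 0 h array. They were the forward probe of chr3:96206303-96206871 (at least 5.25-fold higher at 96 h than at 0 h), the reverse probe of chr7:88131123-88136898 (at least 3.24-fold) and the forward probes of chr5:112205091-112240992 (at least 2.08-fold) and chr13:67932042-67944229 (at least 2.25-fold). The reverse probe of chr13:23517278-23523756, detected on 1 of 4 arrays at 0 h, went from -4.81 ± 0.55 to -2.39 ± 0.60. In all 5, replicate 1 of 96 h, the array with the highest detected share (69.5%), was the highest of the 3, at -1.44, -2.61, -2.47, -2.32 and -1.74 in the order named. Their smallest log2 differences at 96 h against 0 h under the alternatives were 0.49, 0.29, 0.22, 0.24 and 0.48, in the same order.

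Between 48 and 96 h, several single probes that had risen fell back. Forward probe A_30_P01018083 of chr1:183951156-183986156 read 0.86, 0.54, 1.09 and 1.04 at 0 h, 2.10, 2.23, 2.25 and 2.29 at 48 h and 0.54, 0.97 and -0.67 at 96 h. It was higher by 1.33 at 48 h (SE 0.30, limma adjusted p = 0.0166) and fell by 1.94 from 48 to 96 h (SE 0.32, adjusted p = 0.00874). Reverse probe A_30_P01028216 of chr4:33375464-33377138 went from -0.99 ± 0.42 to 0.50 ± 0.71 and -1.89 ± 0.83, and fell by 2.39 from 48 h (SE 0.45, adjusted p = 0.0134). Leaving out 96 h replicate 1 ended that call (adjusted p = 0.0555). Forward probe A_30_P01027335 of chr3:79075801-79076428 went from -3.46 ± 0.35 to -2.07 ± 0.57 and -4.16 ± 0.52, and fell by 2.09 from 48 h (SE 0.34, adjusted p = 0.00851). The other qualifying forward probe of that interval (A_30_P01018016) instead had means of -4.65, -4.20 and -3.65 at 0, 48 and 96 h. Forward probe A_30_P01021633 of chr2:168804720-168854970 went from -2.71 ± 0.42 to -1.28 ± 0.85 and -3.30 ± 0.39 (adjusted p = 0.0189, lost without 96 h replicate 1 or 3). It was 1 of 6 qualifying probes of its interval, and the other 5 were not called between 48 and 96 h.

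The opposite course was seen in the reverse probe of chr4:35106125-35127700 (A_30_P01027466). It read -1.66, 1.37, 0.48 and -0.57 at 0 h, -3.53, -2.57, -0.62 and -0.47 at 48 h and 1.80, 1.68 and 1.39 at 96 h. The 0 h and 48 h arrays were widely spread and overlapped. The rise of 3.42 from 48 to 96 h passed the test (SE 0.83, limma adjusted p = 0.0321) but not without 48 h replicate 1 or 2 or any 96 h replicate. Forward probe A_30_P01019325 of chr13:98062189-98066613 and the reverse probe of chr11:58136882-58143829 (A_30_P01029729), detected at 96 h alone, were at least 2.47-fold and 1.54-fold higher at 96 h than at 48 h. Their smallest log2 differences under the alternatives were 0.46 and 0.21.

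Intervals with the most qualifying probes differed in how many were called. Of all probes tested, 16.4% were called at 48 h and 8.31% at 96 h against 0 h, and 9.77% between 48 and 96 h. In chr8:119732348-119749198, 17 of 20 probes qualified, 0 were called at 48 h and 1 was called higher at 96 h against 0 h. In chr19:53517903-53540753, 16 of 20 qualified, 0 were called at 48 h and 5 were called higher at 96 h, with a median log2 difference of 0.55. In chr5:74487385-74497428, 16 of 20 qualified, 4 were called higher at 48 h and 4 lower between 48 and 96 h.

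Long noncoding RNAs with names gave a reference for probes of known transcripts. Of 34 listed genes, 22 had a probe and 18 had a probe that met the detection condition. Of their 43 qualifying probes, 17 were called higher and 11 lower at 48 h, beside 9.32% and 7.05% of all probes tested. At 96 h against 0 h, 8 and 4 were, beside 5.53% and 2.77%. The 43 probes stand for 18 genes, and Neat1, Malat1 and Tug1 had several each, so the calls are not of separate transcripts. All 6 probes of Neat1, the RNA around which paraspeckles form, were higher at 48 h, by 1.37 to 1.63, and at 96 h, by 1.0 to 1.21 (5 of 6 passed at 96 h with median scaling). All 4 probes of Malat1, an abundant nuclear RNA, were higher at 48 h by 0.78 to 1.01 (0 of 4 passed with median scaling), and 0 of 4 passed at 96 h.

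Tug1 fell at 48 h in 6 of 8 probes, by 0.54 to 0.82 (1 of 8 with median scaling), and no Tug1 probe was called at 96 h against 0 h. Host genes of small nucleolar RNAs differed among themselves. Snhg12, Snhg1 and Snhg5 fell by 3.78, 2.49 and 2.26 at 48 h (limma adjusted p = 0.00397, 0.00563 and 0.00837) and by 3.33, 2.89 and 2.66 at 96 h, while Snhg3 was higher by 1.05 at 48 h (adjusted p = 0.00254), a call lost with median scaling. Probes of Kcnq1ot1, an imprinted antisense transcript, disagreed: A_55_P2408415 was higher by 1.82 at 48 h (adjusted p = 0.00654) and A_30_P01026203 by 0.14 (adjusted p = 0.46). Of 5 Hotair probes, 4 were above background on no array. As a class, the 306 named probes annotated as long noncoding and detected on all arrays had a median log2 difference of 0.12 at 48 h, between 0.26 for interval probes and -0.01 for protein-coding probes. Relative to protein-coding probes of like brightness, the long noncoding class with qualifying probes stood at 0.03 at 48 h. The interval probes above were set against all named-gene probes, a different reference.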

How the data were processed

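RNA of 11 samples was hybridized to 1-colour (Cy3) Agilent arrays, 1 per sample, after purification on RNeasy columns, per the labels' protocols. The scanner files came from Agilent Feature Extraction 11.0.1.1 on a design built on mm9, per the file headers. Per the file headers, their processed intensity has each array's background and spatial trend removed, without normalization across arrays, and the deposited median spot and background intensity is raw. Flags for background, outliers and saturation are 0 or 1. The authors' deposited table holds log2 values, already normalized between arrays. The submitters' processing notes name limma without a version. The table's columns, with medians from 6.17 to 6.19, correlated at 0.99998 or more with scanner values after normexp (offset 50) and quantile normalization.

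Outlier spots were left out and spots of 1 probe averaged. The main value was log2 of processed signal less the array's 75th percentile. Probes well above background on at least 3 arrays (34274) entered a limma 3.58.1 fit (lmFit, eBayes) in R 4.3.3 of all 11 arrays and 3 groups, which left 8 residual degrees of freedom. Tests were 2-sided, with p adjusted by Benjamini-Hochberg over the 34274, and a probe was called under 0.05. Errors are limma's SE or the SD over arrays, whose number limits the precision. The sample labels do not say which of the 4 cell lines an array holds. P-values therefore measure the spread between these samples. Array files of different times that carry the same number deviated together in all 10 pairs (correlation 0.11 to 0.33), and a fit with that number as a block was an alternative.

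RefSeq accessions (assembly GRCm38.p6, used for names alone) gave 27656 probes a symbol. Folds written "at least" set the bright group against the higher of each dim array's lowest detected signal and the probe's own. Such folds hold for the main values and are not lower bounds under the alternatives. Probes named singly were called, with groups that do not overlap. Each interval was represented by its brightest such probe, which need not show its largest difference. They are, among these, the 8 largest differences each way against 0 h, the 4 largest each way between 48 and 96 h, and the 4 largest each way against 0 h among probes detected on all arrays. Intervals with the most probes and probes at the edge of the condition were named too, and intervals of chromosome 18 were counted and not named. The members, gene lists and tests were chosen with earlier results of these data known. Neighbouring genes and probe sequences were not analysed here, and 1 marker gene is not reported here. The fit was tested on simulated data. Scaling, background correction, filters, blocks, array weights and left-out arrays were the alternatives.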

Additional observations from a re-analysis of the deposited data

Results flagged for a closer look

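Among the singly named probes and 2 summary measures, 80 groups of 4 arrays were examined for an array far from the other 3, and 2 had one. Chance marks about 1 in 20 such groups. The reverse probe of chr6:28172545-28176170 (A_30_P01027994) read -3.51 in 48 h replicate 1, against -3.16 to -3.12 in the other 48 h arrays. In chr3:138239464-138241728, reverse probe A_30_P01029532 read -0.444 in 0 h replicate 2, against 0.1 to 0.169 in the other 0 h arrays.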

How the results depend on the processing

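The relative shift of interval probes kept its sign under every alternative run for it, but some of these could not change it. Dropping the filter on dim probes, or an array of a group not compared, left the value the same. Replicate blocks and a slide-row term also left the 48 h value at 0.154. A kept sign under such settings is no evidence that the shift is stable. At 48 h against 0 h (0.15) it was 0.050 with normexp and quantile normalization, 0.0511 in the deposited table and 0.25 with no brightness steps. At 96 h against 0 h (0.04) it was 0.16 with no brightness steps. That 0.04 lay below the pooled SD of arrays within groups (0.0495), and the 0 h and 96 h arrays overlapped. At 96 h against 48 h (-0.11) the relative shift was -0.0364 with normexp and -0.0377 in the deposited table. Without single arrays it ranged from 0.13 to 0.18, 0.03 to 0.06 and -0.13 to -0.08. The cause was not tested.

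Counts of called interval probes moved more. At 48 h against 0 h (875) the count was 294 with median scaling and 328 with no filter on dim probes. Of all probes tested, 8.23% and 4.23% were then called, against 16.4%. At 96 h against 0 h (537) it was 331 in the deposited table, 113 with no filter, 328 with normexp, 299 with quantile normalization and 69 with only the 2 groups fitted. The share of all probes was 9.63%, 1.36%, 9.51%, 6.77% and 1.09% in that order, against 8.31%. At 96 h against 48 h (671) the count was 326 with median scaling, 228 with no filter and 407 with only the 2 groups fitted. The share of all probes was 3.04%, 1.97% and 6.16%, against 9.77%. The 2-group fits use fewer arrays and the unfiltered fit tests more probes; the cause of the other changes was not tested. Without single arrays the counts ranged from 396 to 929, 130 to 558 and 211 to 637.

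With the replicate block by the array files' number the counts were 885, 576 and 585. With the replicate block by the number in the titles, which did not pair the samples (lowest correlation -0.04), they were 713, 283 and 362. Of the 46 differences of singly named probes, the block by file number ended 4 calls: those of A_30_P01025707 and A_30_P01032397 at 96 h, given above, and, among probes not detected on every array, A_30_P01032982 at 48 h and A_30_P01033353 at 96 h. It changed no other call among the 46. Over all alternatives, 26 of the 46 kept their call under every alternative run, 20 lost it under at least 1 and 0 reversed. All 46 were chosen because they were called in these data, and they take in probes not detected on every array. The tally is therefore a description and not support for the calls. Dim probes limit these data: the median scaled signal of interval probes was -2.34 against 0.60 for named genes, and detection at 96 h rests on 1 slide. Neighbouring genes could not be set beside the intervals and were not run.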
